A study of Danio rerio with 2 samples.

Results

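The genes btg4, bmp15, mos and org encode messages that the fish oocyte lays down in the egg. Among the roles of btg4, bmp15 and mos are oocyte growth, meiotic maturation and the later removal of maternal mRNA. All 4 genes were taken by gene symbol from the deposited expression data and were found among 4591 listed genes. The study compared whole zebrafish embryos of the Tuebingen strain injected at the 1-cell stage with 5 ng of a phf14 morpholino (phf14 MO) and embryos injected with 5 ng of a standard morpholino (standard MO), both collected at 4.7 h after fertilization. A morpholino is a synthetic antisense molecule that interferes with translation or splicing of the transcript it pairs with. PHF14 is a chromatin protein that reads histone H3, and the series title places it in zygotic genome activation. With 1 library for each morpholino, the differences are between 2 libraries and carry neither a replicate error nor a p-value. The sources used here do not give the number of embryos pooled, and in RNA of whole embryos a change in the number of cells of a type and a change in the RNA per cell cannot be told apart.

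An early zebrafish embryo runs on mRNA made by the oocyte until its own genome becomes active, and the maternal messages are then removed while zygotic messages take over. Shortening of the poly(A) tail by the CCR4-NOT deadenylase is a main route of that removal. BTG4 belongs to the BTG/TOB family of adaptors that bind the deadenylase and, in the mouse, is needed to clear maternal mRNA as the oocyte matures and the egg is activated. MOS is a kinase that switches on the MAP kinase cascade during meiotic maturation and helps to hold the vertebrate egg in metaphase until fertilization. BMP15 is a secreted growth factor of the TGF-beta family made by the oocyte. org is named as an oogenesis-related gene, and its molecular function is not described here. The series holds no oocyte sample and no earlier or later time point, so the maternal origin of these messages comes from background knowledge and was not tested.

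The values were treated as a normalised expression signal, and the authors' tables do not state their scale. A higher value of one gene than of another is therefore not read as more mRNA. The listed values summed to 71136 in the phf14 MO library and 75675 in the standard MO library, with medians of 3.10 and 2.77, and sequencing depth is unknown. Of the 17 listed genes that mark territories of the early embryo, all had values of at least 8.86 in the phf14 MO library and at least 11.43 in the standard MO library, in accord with the whole-embryo label. The targeted gene, phf14, was not analysed here, and the size of the knockdown cannot be read from these values.

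btg4 and bmp15 were about 2-fold higher in the phf14 MO library, whereas mos and org were nearly level between the libraries. The clearance adaptor gene btg4 (ENSDARG00000035171) had a value of 13.45 in the phf14 MO library and 6.89 in the standard MO library. The oocyte growth factor gene bmp15 (ENSDARG00000037491) had 4.92 in the phf14 MO library and 2.28 in the standard MO library. Both therefore had the higher value after phf14 MO injection, with direct ratios of 1.95 for btg4 and 2.16 for bmp15. The maturation kinase gene mos (ENSDARG00000069744) had 5.15 in the phf14 MO library and 4.55 in the standard MO library, a ratio of 1.13. The oogenesis-related gene org (ENSDARG00000076474) had 17.40 in the phf14 MO library and 18.82 in the standard MO library, a ratio of 0.925, and was alone among the 4 in having its lower value after phf14 MO injection.

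**Figure D1:**
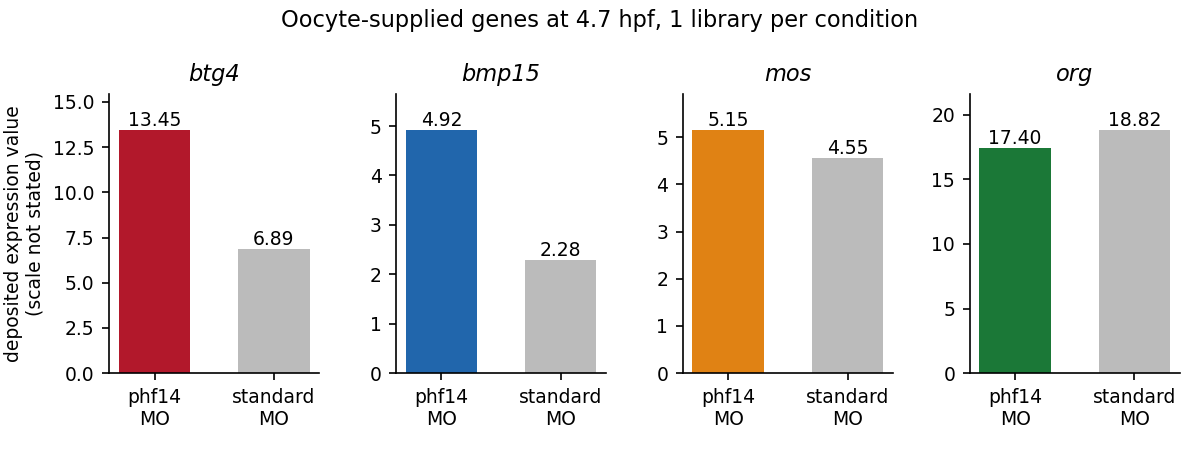
Deposited expression value (scale not stated, axis from 0 and separate for each gene) of btg4, bmp15, mos and org in the phf14 MO library (coloured bar) and the standard MO library (grey bar), 1 library each, hence no error bars. The phf14 MO bar is about 2-fold higher for btg4 (ratio 1.95) and bmp15 (2.16), and the bars are close for mos (1.13) and org (0.925).

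To place these differences among all genes, a log2 ratio of the phf14 MO over the standard MO library was computed after adding 1 to each value, an addition that shrinks the ratio of genes with low values. All 4 genes passed the minimum mean of 1 over the libraries, as did 3524 genes in total. These 3524 are the "all genes" of the text. They come from 4591 listed genes, a partial set with uneven coverage. Of the symbols searched, 17 of 18 for embryo territories were listed, but 5 of 20 for CCR4-NOT and the BTG/TOB family. Ranks and shares therefore hold among the listed genes only. The log2 ratio was 0.87 for btg4, 0.85 for bmp15, 0.15 for mos and -0.11 for org. Across the 3524 genes the median log2 ratio was 0.11 and the SD 0.35, a spread that mixes real differences and measurement error. btg4 had the 22nd highest log2 ratio of the 3524 genes and bmp15 the 25th, so 0.596% and 0.681% of genes lay above them. mos ranked 1591st and org 2568th, both within the bulk of the genes. Relative to the median gene the log2 ratios were 0.76 for btg4, 0.74 for bmp15, 0.04 for mos and -0.22 for org, and every list median below is likewise shifted by 0.11.

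None of the 4 genes was past 2-fold on this scale, where 0.341% of genes were past it in the higher and 0.482% in the lower direction. At 1.5-fold, 2 of the 4, btg4 and bmp15, were past it in the higher direction, against 4.97% of all genes. With a pseudocount of 5 bmp15 was at 0.45 and no longer past 1.5-fold. In the lower direction 0 of 4 were past 1.5-fold, against 2.87% of all genes.

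Because the log2 ratio varied with level, the 3524 genes were cut by mean level into 10 bins of equal size and each gene was also set beside the genes of its own bin. Among the 352 genes with means from 9.33 to 14.35, the median log2 ratio was 0.10 with an SD of 0.365, and 2 genes exceeded btg4. Among the 352 genes with means from 3.425 to 4.69, the median was 0.17 with an SD of 0.363, and 3 genes exceeded bmp15. Both thus stood near the top of the genes of like level. mos was exceeded by 54.5% of the genes in its bin, whose median of 0.18 was above its own log2 ratio. org was exceeded by 66.8% of the genes in its bin, whose median was 0.07.

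**Figure D2:**
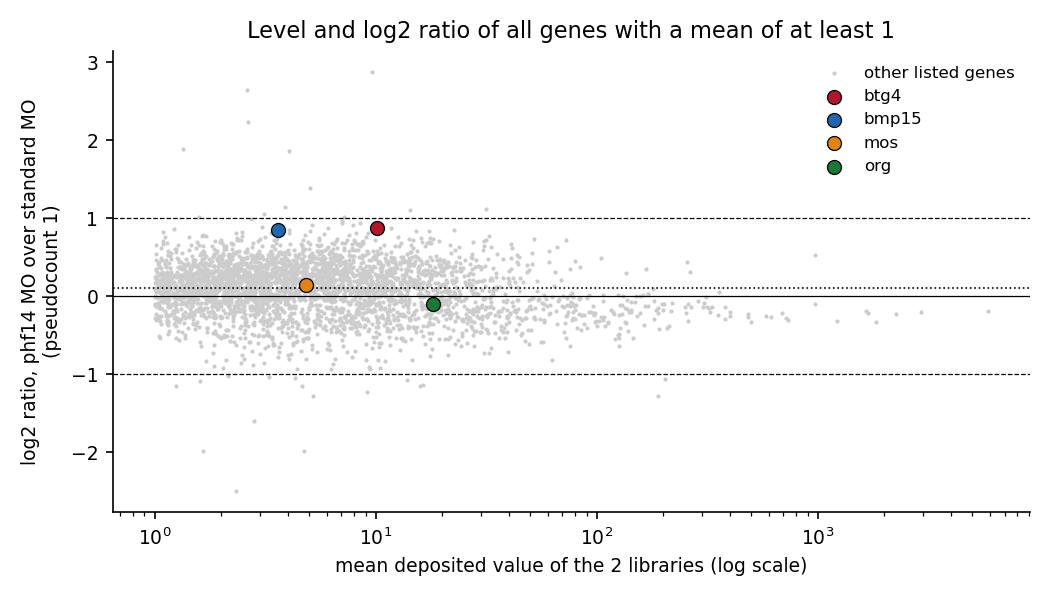
Log2 ratio of the phf14 MO over the standard MO library (pseudocount 1) against the mean deposited value of the 2 libraries (log axis) for the 3524 genes that passed the minimum mean of 1; each point is a gene, the dotted line is the median gene at 0.11 and the dashed lines mark 2-fold. btg4 (0.87) and bmp15 (0.85) lie at the upper edge of the cloud just under the 2-fold line, and mos (0.15) and org (-0.11) lie inside it.

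The ratio of one gene to another inside a library does not depend on a single scaling factor between the libraries. The value of btg4 was 0.773 times that of org in the phf14 MO library and 0.366 times in the standard MO library, a 2.11-fold difference between the libraries. For bmp15 over org the within-library ratios were 0.283 in the phf14 MO library and 0.121 in the standard MO library, a 2.33-fold difference. Against mos, btg4 stood at 2.61 in the phf14 MO library and 1.51 in the standard MO library, and bmp15 at 0.955 in the phf14 MO library and 0.501 in the standard MO library. These differ by 1.72-fold and 1.91-fold between the libraries. The pairs btg4 with bmp15 and mos with org kept closer ratios. btg4 over bmp15 was 2.73 in the phf14 MO library and 3.02 in the standard MO library, and mos over org was 0.296 in the phf14 MO library and 0.242 in the standard MO library. These ratios cancel a single scaling factor common to all genes, and not a shift that varies with level.

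The direction of btg4 and bmp15 was the same under the 6 other settings, whereas mos changed sign in 1 of them. A change of pseudocount cannot change a sign. The log2 factors were 0.11 for the median gene, 0.15 for the trimmed mean of M values and 0.09 for equal sums. These are small beside the log2 ratios of btg4 and bmp15, so the kept direction of those genes adds no support. The log2 ratio of btg4 ran from 0.63 to 0.96 and that of bmp15 from 0.45 to 1.08, the lowest being with a pseudocount of 5. Relative to the median of its level bin mos was at -0.03. org was lower in the phf14 MO library throughout, from -0.25 to -0.02. The median gene, trimmed mean and level bin settings could only lower org, so its kept sign adds no support either.

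**Figure D3:**
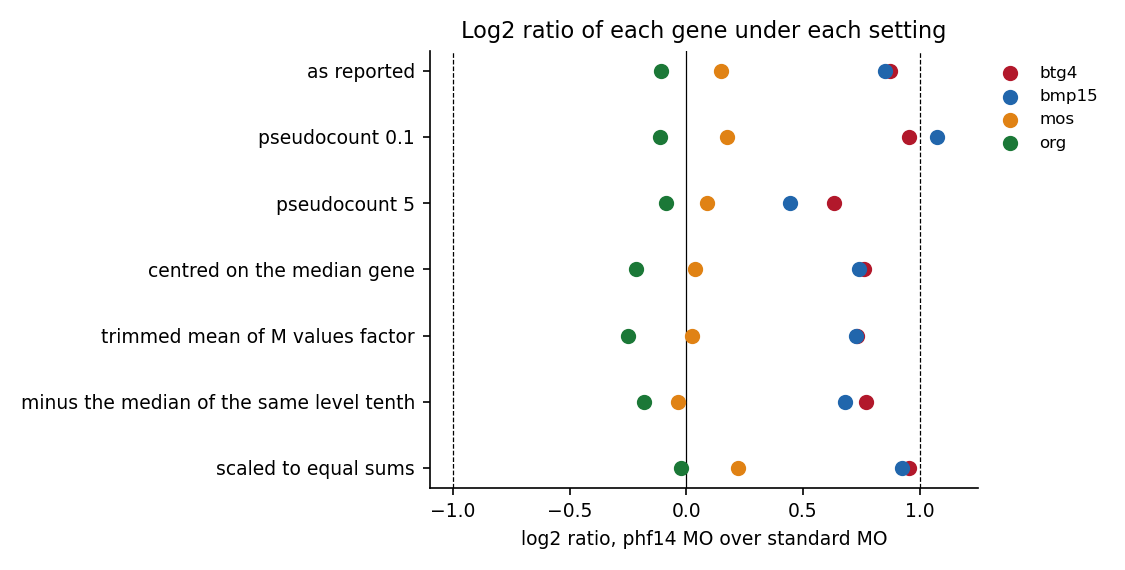
Log2 ratio of the phf14 MO over the standard MO library for each gene (coloured points) under the reported setting and 6 others, listed down the page; dashed lines mark 2-fold. btg4 (0.63 to 0.96) and bmp15 (0.45 to 1.08) stay well to the right of 0, mos crosses 0 in 1 setting (-0.03), and org stays to its left (-0.25 to -0.02).

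The other messages supplied by the oocyte were mostly higher in the phf14 MO library as well, by less than btg4 and bmp15. Of 62 symbols searched, 25 were listed and 24 had a mean of at least 1. Of these 24, 20 had the higher value in the phf14 MO library, with a median log2 ratio of 0.19, against 62.3% of all genes and a median of 0.11. The summed value of the 25 listed genes was 2940 in the phf14 MO library and 3079 in the standard MO library, a ratio of 0.955. Summed over all genes, the ratio was 0.939. The most abundant of the 25, ybx1 and stm, make up most of the list's sum, and both were lower in the phf14 MO library. Above the median gene lay 17 of the 24. Relative to the median of its own level bin, 7 of the 24 were lower, and the median was 0.11. The highest was buc, the Balbiani body and germ plasm organizer gene, at 18.52 in the phf14 MO library and 10.90 in the standard MO library (log2 ratio 0.71). The oocyte transcription factor gene figla followed at 2.0 in the phf14 MO library and 0.91 in the standard MO library (0.65), and the claudin gene cldnd at 80.75 in the phf14 MO library and 51.83 in the standard MO library (0.63). These 3 of the 24 were past 1.5-fold in the higher direction, against 4.97% of all genes. With a mean of 1.455, figla lay near the minimum mean of 1. None of the 24 exceeded btg4 or bmp15, which says little, as only 0.596% and 0.681% of all genes did. Above mos lay 17 of the 24, against 45.1% of all genes, and below org lay 3, against 27.1%. The lowest was spaca4l, which encodes the egg membrane protein Bouncer that admits sperm, at 5.42 in the phf14 MO library and 7.82 in the standard MO library (-0.46). The others were stm, better known for the otolith protein Starmaker, at 559.54 in the phf14 MO library and 675.61 in the standard MO library (-0.27), and the RNA-binding protein gene ybx1 at 1551.33 in the phf14 MO library and 1769.87 in the standard MO library (-0.19). Without stm, 20 of 23 were higher, with a median of 0.20. All 6 listed germ plasm genes are also in this list and were higher in the phf14 MO library, from tdrd6 at 1.68 in the phf14 MO library and 1.64 in the standard MO library (0.02, below the median gene), past dnd1 (0.16), nanos3 (0.16), ca15b (0.23) and tdrd7a (0.46), to buc.

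The few measured genes of the CCR4-NOT complex and the BTG/TOB family differed less between the libraries than btg4. As only 0.596% of all genes lay above btg4, this says little about so few genes. Of 20 symbols for CCR4-NOT subunits and BTG/TOB adaptors, 5 were listed and 4 had a mean of at least 1. Their median log2 ratio was 0.26, and 3 of 4 were higher in the phf14 MO library, against a median of 0.11 and 62.3% of all genes. None of the 4 was past 1.5-fold. Only 4.97% of all genes were past it in the higher direction, so none among so few genes says little, here and in the lists below. btg3, another adaptor of the family, was at 72.06 in the phf14 MO library and 57.99 in the standard MO library (0.31). tob1b, a TOB adaptor, was at 25.34 in the phf14 MO library and 25.83 in the standard MO library (-0.03). cnot4b, a ubiquitin ligase associated with the complex, was at 18.60 in the phf14 MO library and 13.77 in the standard MO library (0.41). The deadenylase subunit gene cnot6b was at 2.80 in the phf14 MO library and 2.27 in the standard MO library (0.22). cnot7, which encodes another deadenylase subunit, fell under the minimum mean, with 1.01 in the phf14 MO library and 0.64 in the standard MO library. The other symbols of this list were not analysed here, nor were the 19 symbols for other deadenylases, poly(A) binding proteins and tail-modifying enzymes.

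Downstream of deadenylation, 7 of 38 symbols for decapping and exonuclease factors were listed. Of these 7, 6 were higher in the phf14 MO library, against 62.3% of all genes. The median log2 ratio of the 7 was 0.26, none was past 1.5-fold, and 4 lay above the median gene. The helicase gene ddx6, which represses and helps to decap mRNA, was at 3.39 in the phf14 MO library and 2.15 in the standard MO library (0.48). Next to it were lsm4 (0.42), a subunit of the Lsm ring, and the exosome cofactor gene skiv2l (0.38). lsm1, a subunit of the cytoplasmic Lsm ring, was the single lower gene, at 2.27 in the phf14 MO library and 2.77 in the standard MO library (-0.21). The exosome gene exosc5 (0.03) and lsm6 (0.05) were nearly level and lie below the median gene.

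Among 32 symbols for recognition factors, components of the microRNA pathway and other RNA-binding proteins, 11 were listed. They include binders of AU-rich and methylated RNA, but also microRNA processing genes and ybx1, so not every one marks messages for clearance. The median log2 ratio of the 11 was 0.19, with 8 higher and 3 lower in the phf14 MO library, against 62.3% of all genes higher. None was past 1.5-fold in either direction, and 7 lay above the median gene. The microRNA processing gene drosha was at 4.76 in the phf14 MO library and 3.05 in the standard MO library (0.51). The GW182 family gene tnrc6c2 (0.32) and dicer1 (0.30) followed. The lower genes were the Argonaute gene ago2 at 11.85 in the phf14 MO library and 14.22 in the standard MO library (-0.24), ybx1 (-0.19) and zfp36l1b (-0.17), which encodes a binder of AU-rich elements. Of these 11 genes, 2 are also among the oocyte transcripts, so those lists are not separate evidence.

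The genes listed for the MOS cascade and maturation-promoting factor were on both sides of 0, the lower ones being wee1 and gsk3b. Of 36 symbols for the MAP kinase cascade below MOS and for maturation-promoting factor, 7 were listed. Of these 7, 5 were higher in the phf14 MO library, against 62.3% of all genes. The median log2 ratio of the 7 was 0.18, or -0.0048 relative to the genes of like level. wee2, the oocyte form of the kinase that restrains CDK1, was the highest, at 73.30 in the phf14 MO library and 48.62 in the standard MO library (0.58). The embryonic and somatic form, wee1, was at 109.92 in the phf14 MO library and 127.07 in the standard MO library (-0.21). rps6ka3b, a ribosomal S6 kinase gene of the family that acts below MAP kinase, was at 2.66 in the phf14 MO library and 1.68 in the standard MO library (0.45). fbxo43, which encodes the inhibitor of the anaphase-promoting complex that maintains metaphase arrest (EMI2), was at 9.88 in the phf14 MO library and 7.54 in the standard MO library (0.35). The CDK1 inhibitory kinase gene pkmyt1 (0.14) lay near mos, and gsk3b, a kinase gene of several pathways, was the lowest at -0.22. None of these was past 1.5-fold. The kinases directly below MOS (MEK and ERK) were not analysed here. Of these 7 genes, 3 are also among the oocyte transcripts.

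The listed genes for the BMP15 partner GDF9 and for receptors and SMADs of the TGF-beta family had smaller log2 ratios than bmp15. That difference cannot be tested with 1 library a condition. As only 0.681% of all genes lay above bmp15, it says little about so few genes. gdf9, the oocyte growth factor that pairs with BMP15 in mammals, was at 4.0 in the phf14 MO library and 3.42 in the standard MO library (0.18). The type I receptor gene bmpr1ba was at 4.16 in the phf14 MO library and 2.97 in the standard MO library (0.38), and the signal transducer gene smad2 at 32.94 in the phf14 MO library and 25.07 in the standard MO library (0.38). The type II receptor gene acvr2aa had a log2 ratio of 0.255, and the TGF-beta type I receptor gene tgfbr1b one of -0.04. These 5 of 36 symbols had a median of 0.255, with 4 higher in the phf14 MO library, against 62.3% of all genes, and none past 1.5-fold. Among other ligands of the BMP and GDF families, bmp7a, which patterns the ventral side of the embryo, was at 90.68 in the phf14 MO library and 105.63 in the standard MO library (-0.22). bmp6, gdf5 and gdf6a were under the minimum mean, with values of at most 0.67 in either library.

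Of 35 listed genes of zygotic activation, 31 were lower in the phf14 MO library, against 37.2% of all genes, with a median log2 ratio of -0.26 and a summed value of 4799 in the phf14 MO library and 5662 in the standard MO library. Of the 35, 22 belong to the most abundant of the level bins, whose 352 genes were lower in 73.0% of cases with a median of -0.15. Relative to the median of its own bin, 24 of the 35 were lower, and the median was -0.11. The lowest were the homeobox gene eve1 (-0.63), the transcription factor gene sp5l (-0.56) and the mesoderm gene tbxta (-0.53), and the highest were the repressor gene her5 (0.64), the anterior gene otx1 (0.56) and the organizer gene gsc (0.17). Past 1.5-fold were 1 of the 35 in the higher direction, her5, and 1 in the lower, eve1. Among all genes 4.97% were past it in the higher and 2.87% in the lower direction, so these counts say little. Of the 17 markers of embryonic territories, 13 of which are in the zygotic list and 15 in the most abundant bin, 15 were lower, with a summed value of 3015 in the phf14 MO library and 3634 in the standard MO library. Their median log2 ratio was -0.28. Set against their own level bins, 12 of the 17 were lower, and the median was -0.13. The part of embryo stage, or of the share of zygotic RNA, in the values of btg4 and bmp15 was not tested. Of 17 markers of ovarian follicle cells, 2 were listed, and none at 0. The gonadotropin receptor gene lhcgr was at 1.58 in the phf14 MO library and 1.24 in the standard MO library, and the steroid synthesis gene cyp17a1 at 15.55 in the phf14 MO library and 11.22 in the standard MO library. Of 15 markers of later blood and muscle, 1 was listed, the leukocyte gene lcp1, at 69.16 in the phf14 MO library and 85.59 in the standard MO library. So few listed markers do not show that ovarian follicle, blood or muscle cells were present in these embryos. The part of these cell types in the result was not tested.

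**Figure D4:**
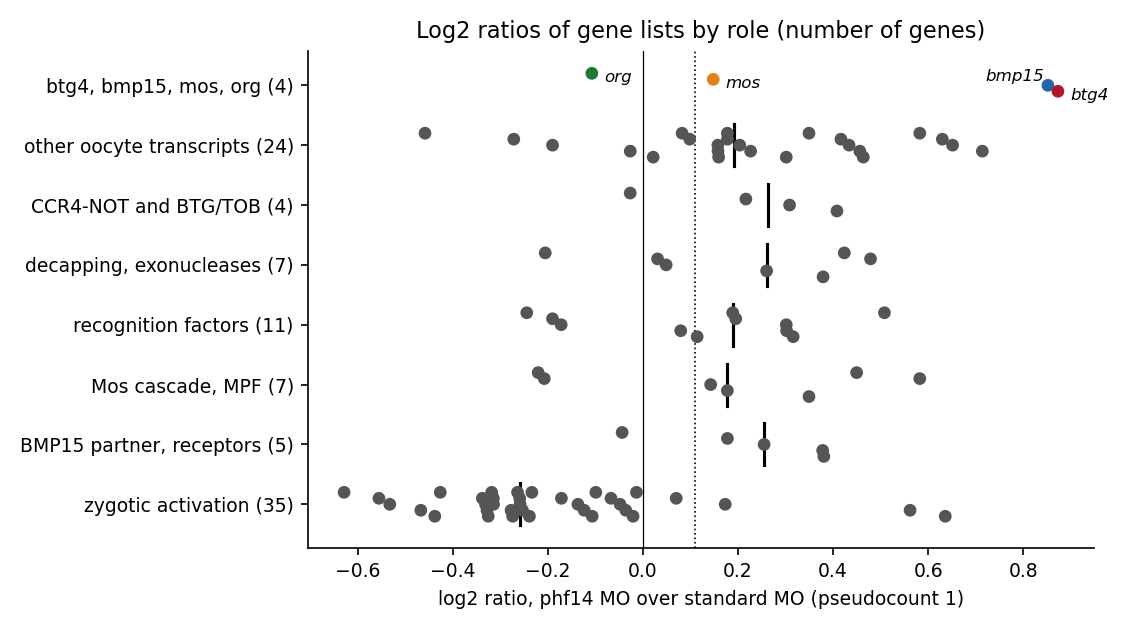
Log2 ratio of the phf14 MO over the standard MO library (pseudocount 1) of each gene (point) in lists arranged by role, with the number of genes with a mean of at least 1 in brackets; black bars are list medians, the dotted line is the median gene at 0.11, and MPF is maturation-promoting factor. btg4 (0.87) and bmp15 (0.85) lie to the right of every other gene shown, with only 0.596% and 0.681% of all genes above them. mos (0.15) and org (-0.11) lie among the other oocyte transcripts (median 0.19), and most zygotic genes (median -0.26) lie left of 0.

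The genes with the values most like each member were found by the distance between log2 values over the 2 libraries, which is a small basis for likeness. Nearest to btg4 was gpr137c, at 12.08 in the phf14 MO library and 6.46 in the standard MO library (distance 0.165), then tmem51b (0.207) and sptlc2a (0.210). Nearest to bmp15 was dock4b, at 5.03 in the phf14 MO library and 2.24 in the standard MO library (distance 0.0319), then stx3a (0.0829) and unc119b (0.0994). mos had closer neighbours in dcaf17 (0.0187), prodha (0.0219) and tmem38b (0.0228). The neighbours of org were atpaf1 (0.0075), dbf4 (0.0186) and ccl38a.3 (0.0432). The first neighbour of btg4 lay farther from it than those of the other members.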

How the data were processed

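Per the labels' protocols, 1 ug of total RNA from whole embryos entered an Illumina TruSeq RNA library. Each library has 1 table, deposited by the authors, of identifiers, symbols and an expression signal. The column has no unit beyond the word expression, per the file headers. Not given in the sources used here are the aligner, build, annotation, quantification and scaling. The 4 identifiers carry the same symbols in the gene name table, apart from letter case. No sequences or coordinates were used.

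Log2 ratios used a pseudocount of 1 and genes with a mean of at least 1 (Python 3.11.15, numpy 2.4.6, pandas 2.3.3). The code was tested on simulated data in which a library was scaled up. That test did not require the recovery of lowered genes from unscaled ratios, the kind reported here. Folds of 2 and 1.5 describe these libraries. The genes and the lists were chosen with earlier results of these data known. Named were the members, their 3 nearest genes with a standard symbol, their relatives, and the 3 highest and 3 lowest genes of each list, or all members of a list of up to 6. Symbols absent from the tables were searched through RefSeq synonyms, which gave zp3e and krt18a.1. Other settings were a pseudocount of 0.1 or 5, subtraction of the median of all genes or of the level bin, a trimmed mean of M values factor without weights (30% of ratios, 5% of levels cut on either side), a minimum mean of 5 or none, and, chosen after seeing the data, scaling to equal sums and, for lists, the level bin.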

Additional observations from a re-analysis of the deposited data

How the results depend on the processing

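The log2 ratios of btg4 and org moved between settings by less than the SD of genes of like level. Their sign was the same under 6 settings, which adds no support. The pseudocounts cannot change a sign, and the other shifts were small beside the log2 ratio of btg4. For org, every shift except scaling to equal sums could only lower it. bmp15 was at 0.45 with a pseudocount of 5, which by construction shrinks low values most, and mos at -0.034 relative to its level bin, whose median is above it. The counts of genes past 2-fold, 12 higher and 17 lower, became 51 and 32 with a pseudocount of 0.1, 2 and 3 with a pseudocount of 5, 5 and 7 with a mean of at least 5, and 175 and 101 at 1.5-fold. The trimmed mean factor gave 7 higher and 22 lower, and centring on the median gene 8 and 24, while scaling to equal sums gave 16 and 12, with more higher than lower genes. Relative to the level bin, a setting added for the lists after seeing the data, the median of the Mos cascade list was -0.0048. Other list medians kept their sign, but many moved by over 1.5 times: other oocyte transcripts from 0.06 to 0.27, germ plasm from 0.06 to 0.27, CCR4-NOT and BTG/TOB from 0.13 to 0.34, decapping from 0.05 to 0.34, recognition factors from 0.05 to 0.26, the BMP15 partner, receptor and SMAD list from 0.085 to 0.33, zygotic genes from -0.40 to -0.11 and territory markers from -0.43 to -0.13, and the Mos cascade list otherwise reached 0.35. No paired analysis was possible because there is 1 library for each morpholino, and leaving one out was not possible either. With the depth unknown, counting error has no estimate.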
